A study of Mus musculus with 24 samples.

Results

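Oxidative phosphorylation genes were examined in poly(A)-selected RNA sequencing libraries of whole spinal cord from 24 mice aged 8 weeks. The genes were chosen by symbol: the 13 protein-coding genes of the mitochondrial genome and the nuclear genes whose symbols begin with Nduf, Uqcr, Atp5, Cox4, Cox5, Cox6, Cox7 or Cox8, with Sdha, Sdhb, Sdhc and Sdhd. The rule gave 107 genes in the GENCODE M21 annotation, of which 106 were among the 38924 genes listed for each library: 13 mitochondrial and 93 nuclear. The mice carried the dominant GarsP278KY allele of glycyl-tRNA synthetase on one chromosome (GarsHet, GarsP278KY/+) or not (GarsWT), together with no intact copy (Gcn2Homo, Gcn2-/-), one copy (Gcn2Het, Gcn2+/-) or both copies (Gcn2WT, Gcn2+/+) of Gcn2. There were 4 Gcn2WT;GarsHet libraries (1 male, 3 female), 4 Gcn2Het;GarsHet (2 male, 2 female), 5 Gcn2Homo;GarsHet (3 male, 2 female), 4 Gcn2Het;GarsWT (3 male, 1 female), 3 Gcn2Homo;GarsWT (1 male, 2 female) and 4 wild-type Gcn2WT;GarsWT libraries (3 male, 1 female). All 24 mice had the same mixed strain background, labelled B6J;CASTxB6.129. The labels name no promoter or Cre that would confine an allele to a cell type, and whole cord mixes all of its cell types. The study's design text names the 4 genotypes with and without both Gcn2 copies. The Gcn2Het libraries are known from the labels alone.

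The respiratory chain passes electrons from NADH and succinate through complexes I to IV to oxygen, and complex V (ATP synthase) uses the proton gradient that this builds to make ATP. Complex II is wholly nuclear encoded, while complexes I, III, IV and V each combine nuclear subunits with subunits encoded in the mitochondrial genome, whose long transcripts are cut into shorter mRNAs, most of one gene and some of a pair of overlapping genes (mt-Atp8 with mt-Atp6, mt-Nd4l with mt-Nd4). Gars charges tRNA with glycine in the cytosol and in mitochondria, dominant Gars alleles cause peripheral neuropathy in mice and people, and Gcn2 (gene symbol Eif2ak4) is a kinase that activates the integrated stress response. The comparisons ask how far spinal cord transcripts differ between mutant and wild-type Gars, and whether loss of Gcn2 changes that.

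Mitochondrial mRNAs lie end to end and in places overlap, which limits how reads can be assigned. The sequences of the shortest and AT-richest of them, mt-Atp8, and of the next shortest, mt-Nd4l, are shown because the largest mitochondrial differences below were in mt-Atp8 and because both overlap a neighbour. Both are from the GRCm38 build on the + strand, mt-Atp8 at chrM:7766-7969 and mt-Nd4l at chrM:9877-10173. Capitals mark the last 43 bases of mt-Atp8, which are also the start of mt-Atp6, and the last 7 bases of mt-Nd4l, which are also the start of mt-Nd4.
mt-Atp8: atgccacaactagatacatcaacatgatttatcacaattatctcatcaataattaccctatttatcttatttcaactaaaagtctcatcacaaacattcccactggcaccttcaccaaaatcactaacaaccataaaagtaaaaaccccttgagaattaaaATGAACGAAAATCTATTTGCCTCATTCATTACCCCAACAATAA
mt-Nd4l: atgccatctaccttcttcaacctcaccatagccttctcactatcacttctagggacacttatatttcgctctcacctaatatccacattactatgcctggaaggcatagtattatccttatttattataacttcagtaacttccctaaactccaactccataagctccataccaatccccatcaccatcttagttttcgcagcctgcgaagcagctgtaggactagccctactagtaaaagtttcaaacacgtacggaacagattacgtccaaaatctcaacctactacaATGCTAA
The strand setting of the counting was not given in the sources used here, so mt-Nd6, which is read from the opposite strand beside mt-Nd5, may share reads with it.

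Deposited counts summed to between 19.7 and 32.4 M per library (1 M is 1e+06). Levels in CPM are counts scaled to a library total of 1e+06, after that total was adjusted by a scaling factor. Eif2ak4 was at 11.4 to 15.0 CPM in the 8 Gcn2Homo libraries and 20.4 to 23.6 CPM in the 8 Gcn2Het libraries. It was at 28.9 to 34.4 CPM in the 8 Gcn2WT libraries, with no overlap between the genotypes. Markers of spinal cord cells were present in all 24 libraries: Slc1a2 of astrocytes had at least 2472 CPM, Snap25 of neurons at least 1407 CPM and Chat of motor neurons at least 13.7 CPM. In bulk tissue, fewer cells of a type and less RNA per cell cannot be told apart.

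Mitochondrial mRNAs were far more abundant than nuclear ones. The 13 averaged between 4896 TPM (a level per length, scaled to the same total) for mt-Nd5, a complex I subunit, and 33858 TPM for mt-Atp8, a complex V subunit, with a median of 11987 TPM. The mt-Atp8 value rests on a deposited effective length (the number of places at which a fragment can start) of only 17.5 to 23.4 bases for a gene of 204 bases, so its TPM is the least certain of the 13. Of the nuclear genes, the most abundant per complex were Ndufa4 among those with complex I symbols (1003 TPM, though its protein is now placed in complex IV), Sdha of complex II (336 TPM), Uqcrh of complex III (727 TPM), Cox4i1 of complex IV (1128 TPM) and Atp5b, the catalytic beta subunit of complex V (1407 TPM). The median nuclear level was 214 TPM for 38 complex I genes, 23.2 TPM for 8 complex I assembly factors, 166 TPM for the 4 complex II genes, 354 TPM for 8 complex III genes, 382 TPM for 18 complex IV genes and 392 TPM for 17 complex V genes. Structural subunits thus sat about an order of magnitude above the assembly factors. Cox8c, a testis isoform, and Atp5g2 were listed at 0 in all 24 libraries and Cox7b2 was too low to test, which left 103 of the 106 genes (13 mitochondrial, 90 nuclear) among the 17409 genes tested. Atp5g1 and Atp5g3 averaged 302 and 769 TPM. Why Atp5g2 had no counts was not tested, so its 0 is not read here as absence from the cord.

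The libraries differed in base composition in a way that touches the mitochondrial genes. A GC slope was computed for each library as the slope of its log2 CPM deviations on the GC content of 14737 genes outside the list, per 10 percentage points of GC, so that a slope below 0 means relatively more reads from AT-rich genes. It was below 0 in 9 libraries and above 0 in 15. The 9 were 0 of 4 Gcn2WT;GarsHet, 3 of 4 Gcn2Het;GarsHet, 1 of 5 Gcn2Homo;GarsHet, 0 of 4 Gcn2Het;GarsWT, 2 of 3 Gcn2Homo;GarsWT and 3 of 4 Gcn2WT;GarsWT libraries. The labels' protocols name 2 library kits and 2 versions of the sequencing reagents without saying which library had which. The mitochondrial genes had GC contents of 31.9% (mt-Atp8) to 41.1% (mt-Nd4l), below the nuclear members' median of 51.3%.

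mt-Atp8 was at 546 to 985 CPM in the 9 libraries with a slope below 0 and at 120 to 359 CPM in the 15 with a slope above 0, and mt-Nd3 at 653 to 912 CPM and 333 to 572 CPM. These 2 of 13 mitochondrial genes were higher without overlap, beside 2.16% of all tested genes. Of the 90 nuclear genes 1 was higher (Ndufaf4, 28.3 to 38.0 CPM and 20.7 to 28.02 CPM) and 3 were lower (Cox6a1, Ndufa11 and Ndufb10), beside 0.615% of all tested genes that were lower. Cox6a1, the most GC-rich gene of the list at 60.8%, was at 109 to 129 CPM in the 9 and 133 to 183 CPM in the 15. The Gcn2WT;GarsHet and Gcn2Het;GarsWT libraries lay wholly above a slope of 0, and the other 4 genotypes had libraries on both sides.

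**Figure D1:**
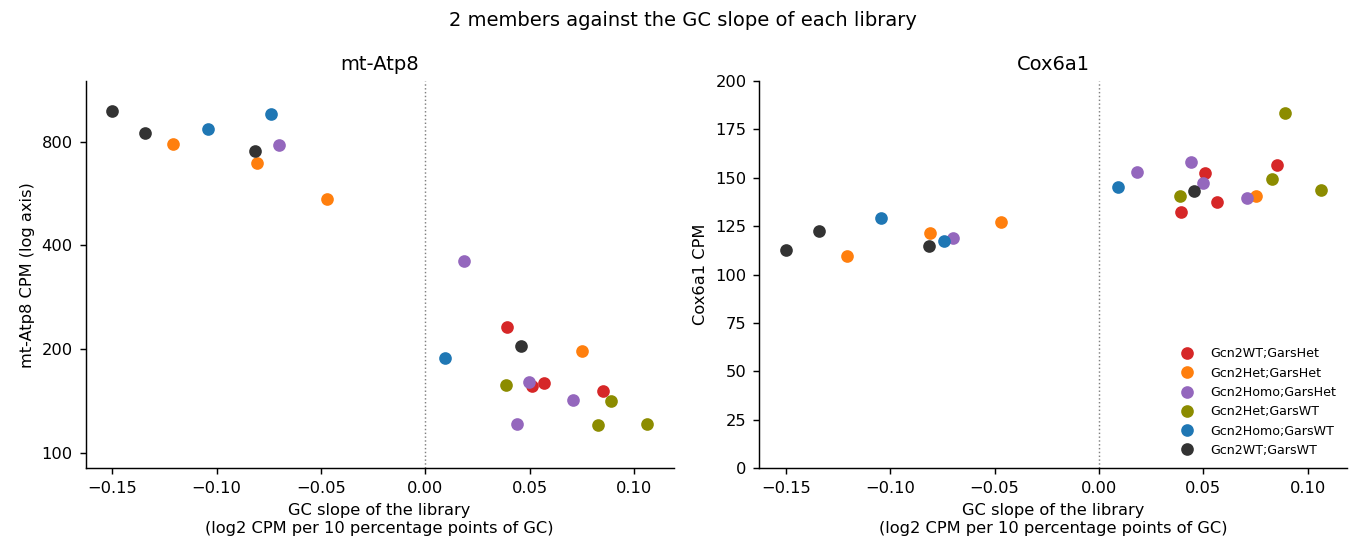
mt-Atp8 (left, log axis) and Cox6a1 (right) in CPM against the GC slope of each library, one point per library, coloured by genotype. The dotted line marks a slope of 0. mt-Atp8 lies at 546 CPM or above in the 9 libraries left of the line and at 359 CPM or below in the 15 right of it, and Cox6a1 lies at 129 CPM or below on the left and at 133 CPM or above on the right.

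The 13 mitochondrial genes together took 6.09 ± 0.30% of counts in Gcn2WT;GarsHet libraries (SD, n = 4), 7.01 ± 0.43% in Gcn2Het;GarsHet (n = 4), 6.32 ± 0.79% in Gcn2Homo;GarsHet (n = 5), 5.91 ± 0.80% in Gcn2Het;GarsWT (n = 4), 7.01 ± 1.23% in Gcn2Homo;GarsWT (n = 3) and 6.63 ± 0.72% in Gcn2WT;GarsWT (n = 4). Single Gcn2WT;GarsHet libraries were at 5.89%, 5.97%, 5.95% and 6.54%, against 5.71%, 7.41%, 6.49% and 6.92% in wild-type libraries. These groups overlapped, and so did all 6 genotypes. The lowest wild-type library, at 5.71%, was also the only wild-type library with a GC slope above 0. The nuclear genes were steadier, at 0.867% to 0.971% of counts over the 24 libraries.

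**Figure D2:**
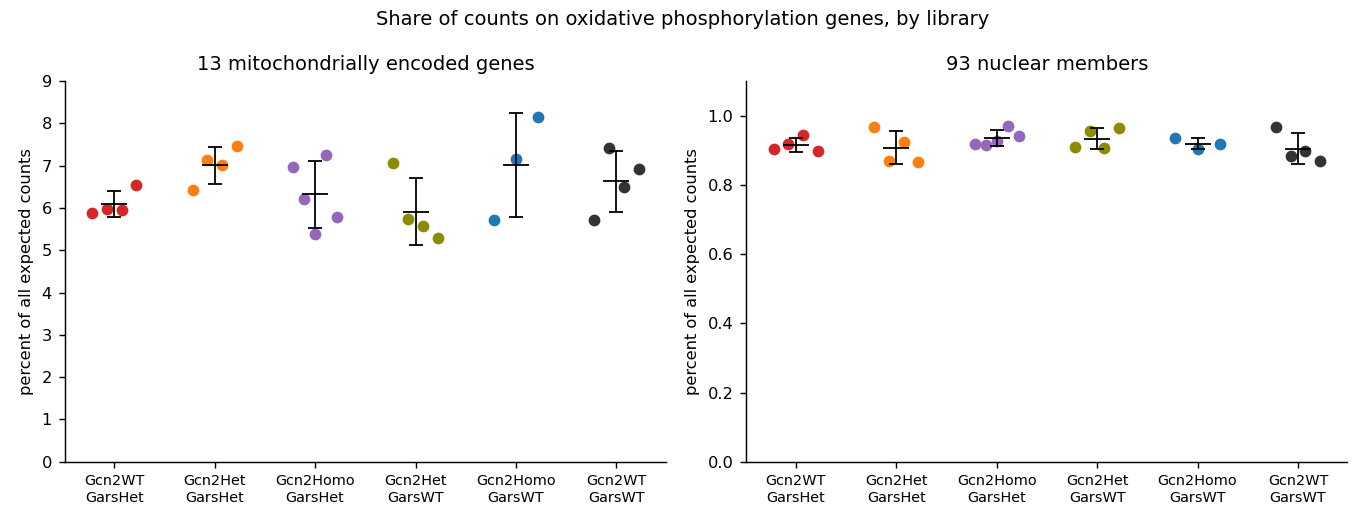
Percent of all expected counts on the 13 mitochondrial (left) and 93 nuclear (right) oxidative phosphorylation genes, one point per library, with the group mean and SD as bars. Mitochondrial shares run between 5.28% and 8.16% and the 6 genotypes overlap, while the nuclear share stays between 0.867% and 0.971%.

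The Gars comparison gave opposite signs for the mitochondrial genes at different Gcn2 doses, with 0 of 13 passing edgeR's test at any dose. Between Gcn2WT;GarsHet and wild-type cords, all 13 had log2 changes below 0, with a median of -0.28, beside 0.01 over all genes. Between Gcn2Het;GarsHet and Gcn2Het;GarsWT cords all 13 were above 0, with a median of 0.28 beside -0.01 over all genes, and between Gcn2Homo;GarsHet and Gcn2Homo;GarsWT cords all 13 were below 0, with a median of -0.18 beside 0.00. Without Gcn2Het;GarsWT replicate 4 or 1 the Gcn2Het median was 0.18 or 0.43, and without Gcn2Homo;GarsWT replicate 3 or 1 the Gcn2Homo median was -0.07 or -0.33. The 13 share long transcripts and libraries and are not independent of one another. edgeR's quasi-likelihood test with Benjamini-Hochberg adjustment called 0 of the 13 in each comparison, where it called 0.632%, 0.178% and 0.0115% of all genes at Gcn2WT, Gcn2Het and Gcn2Homo. At an unadjusted p under 0.05 the counts were 5, 5 and 0 of 13, beside 17.3%, 14.7% and 4.35% of all genes. DESeq2, which called 3.72%, 1.1% and 0.149% of all genes, called 1 of the 13, mt-Atp8 at Gcn2WT (adjusted p = 0.0267).

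mt-Atp8 showed the widest differences. It was at 160, 156, 151 and 232 CPM in Gcn2WT;GarsHet cords, against 204, 985, 848 and 749 CPM in wild-type cords. In this comparison 3 of the wild-type libraries were well above every mutant one. The wild-type library at 204 CPM, the one with a GC slope above 0, lay among the mutant libraries. The log2 change was -2.13 ± 0.67 (SE; adjusted p = 0.131). At the Gcn2Het dose it was at 197, 788, 546 and 696 CPM in Gcn2Het;GarsHet cords, against 158, 120, 121 and 141 CPM in Gcn2Het;GarsWT cords, with every mutant library above every wild-type-Gars one and a log2 change of 1.97 ± 0.64 (adjusted p = 0.222). The mutant library at 197 CPM was the only one of its group with a GC slope above 0, where all 4 Gcn2Het;GarsWT libraries lay. The Gcn2Homo cords ranged widely in both groups, at 783, 142, 121, 359 and 160 CPM in Gcn2Homo;GarsHet and 188, 870 and 965 CPM in Gcn2Homo;GarsWT, and the groups overlapped.

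mt-Nd3, a complex I subunit, was at 443, 399, 448 and 560 CPM in Gcn2WT;GarsHet cords, against 410, 762, 676 and 653 CPM in wild-type cords, and at 566, 735, 739 and 755 CPM in Gcn2Het;GarsHet cords, against 572, 405, 392 and 333 CPM in Gcn2Het;GarsWT cords. Both pairs of groups overlapped through a single library. The log2 values were -0.48 at Gcn2WT and 0.68 at Gcn2Het. Of the other complex I genes, mt-Nd4 had log2 values of -0.44 and 0.34, mt-Nd6 of -0.36 and 0.18, mt-Nd5 of -0.31 and 0.18, mt-Nd4l of -0.25 and 0.40, mt-Nd2 of -0.13 and 0.28 and mt-Nd1 of -0.11 and 0.25, none past the threshold. In complexes IV and V, mt-Co2 was at -0.28 and 0.33, mt-Co3 at -0.22 and 0.28 and mt-Atp6 at -0.47 and 0.48. mt-Cytb, the only mitochondrial gene of complex III, had the values nearest to 0 at both doses, -0.04 and 0.05. mt-Co1, the catalytic subunit of complex IV and the mitochondrial gene with the smallest spread within groups (SD 0.10 on the log2 scale), was at -0.14 and 0.09. With the GC slope of each library added to the model, an alternative chosen after seeing the data, the median of the 13 was 0.10 at Gcn2WT, 0.01 at Gcn2Het and 0.00 at Gcn2Homo, and mt-Atp8 was at -0.15, 0.21 and -0.05. Per-gene GC offsets, also chosen after seeing the data, gave medians of -0.04, 0.08 and -0.05, with mt-Atp8 still at -1.74 and 1.56 for Gcn2WT and Gcn2Het.

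**Figure D3:**
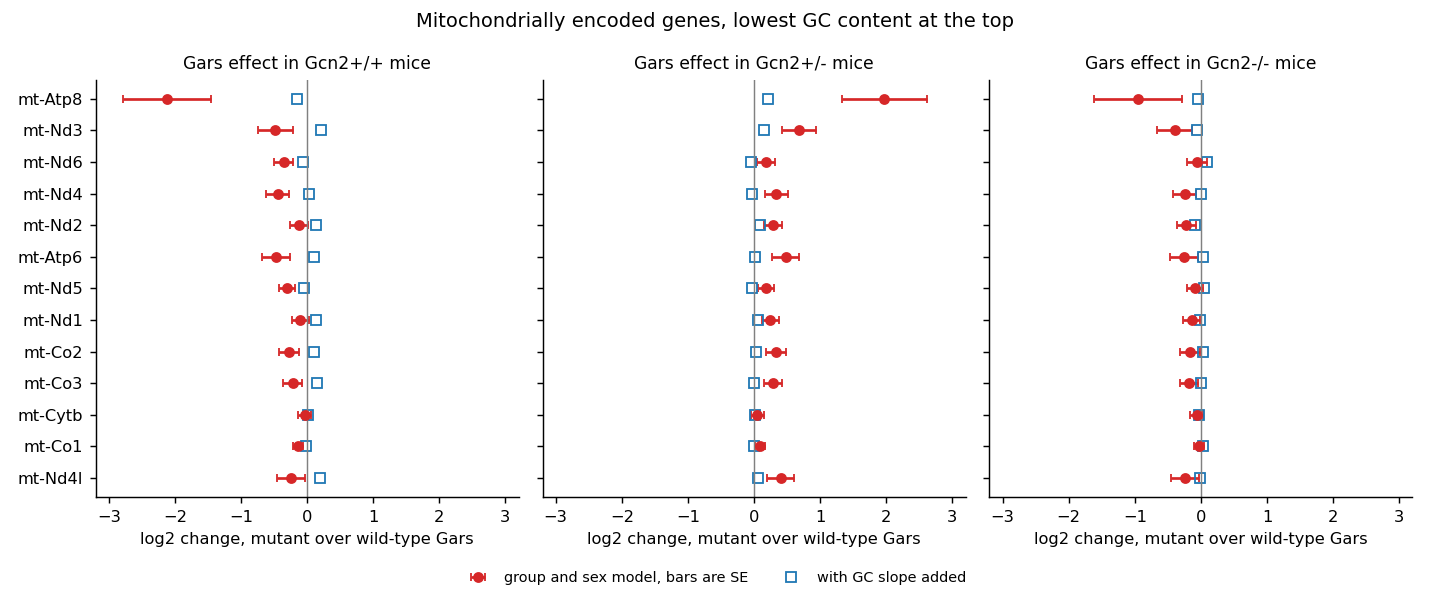
Log2 change between mutant and wild-type Gars for the 13 mitochondrial genes at each Gcn2 dose (panels), ordered with the lowest GC content at the top. Red points with SE bars are from the model with group and sex, open squares from the model with the GC slope added. mt-Atp8 lies at -2.13, 1.97 and -0.96 in the first model and at -0.15, 0.21 and -0.05 in the second.

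The nuclear genes differed little between mutant and wild-type Gars. Between Gcn2WT;GarsHet and wild-type cords the median log2 change of the 90 tested was -0.05, with 30 above 0, beside 0.01 over all genes. The medians by complex were -0.03 for complex I, -0.05 for its assembly factors, -0.03 for complex II, -0.01 for complex III, -0.07 for complex IV and -0.07 for complex V. edgeR called 0 of the 90, with 12 at an unadjusted p under 0.05 (17.3% of all genes), and DESeq2 called 2, Atp5k and Atp5mpl (3.72% of all genes). Neither count stands out from all genes. The 4 succinate dehydrogenase genes of complex II lay between -0.06 and 0.05, and the most abundant genes Ndufa4, Uqcrh, Cox4i1 and Atp5b at -0.08, -0.06, -0.12 and -0.08. The isoforms known from muscle, lung or testis, Cox7a1, Cox8b, Cox4i2 and Cox6b2, were at -0.38, -0.55, -0.09 and -0.06. Ndufa4l2 was at 0.08, and adjusted p was 0.506 or more for all of these.

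The nuclear genes with the smallest p-values at Gcn2WT were Cox6a2, described below, Atp5k, Atp5mpl and Ndufaf1. Atp5k, the small e subunit of ATP synthase, was at 40.0, 42.1, 43.7 and 40.5 CPM in Gcn2WT;GarsHet cords, against 50.2, 52.0, 49.9 and 50.0 CPM in wild-type cords. The groups did not overlap, and the log2 change was -0.31 ± 0.07 (adjusted p = 0.0554). With GC offsets, which called 0.574% of all genes, Atp5k passed (-0.36, adjusted p = 0.031), and with the GC slope in the model, which called 0.126%, it did not (-0.28, adjusted p = 0.381). Atp5mpl, another small ATP synthase subunit, was at 50.2, 45.5, 49.1 and 51.3 CPM, against 58.1, 57.0, 54.9 and 57.1 CPM in wild-type cords, again without overlap, with a log2 change of -0.22 ± 0.06 (adjusted p = 0.0735). Ndufaf1, a complex I assembly factor, had a log2 change of -0.17 ± 0.05 (adjusted p = 0.132).

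The same mutant cords also had lower neuronal marker sums. The 6 neuronal markers summed to 5107 to 5699 CPM in Gcn2WT;GarsHet cords, against 6926 to 7759 CPM in wild-type cords, and the 6 motor neuron markers to 110 to 131 CPM, against 188 to 234 CPM, with 2 and 4 of 6 called lower. Schwann cell and nerve root markers summed to 683, 1722, 751 and 3004 CPM in Gcn2WT;GarsHet cords, against 629 to 1034 CPM in wild-type cords. By these sums they were high in 2 of the 4 mutant libraries, but 1 marker, Mal, had at least 547 CPM in every library. Averaged as log2 CPM, the markers were at 1.45, 5.32, 2.74 and 6.03, against 1.39 to 1.67 in wild-type cords. By that average every mutant library but the first was above all wild-type ones. The part of these differences in cell content in the values above was not tested.

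At Gcn2Het and Gcn2Homo the nuclear medians were -0.04 and 0.02, and edgeR again called 0 of 90, with 7 and 2 at an unadjusted p under 0.05 (14.7% and 4.35% of all genes). DESeq2 called Ndufv3 and Atp5s at Gcn2Het (1.1% of all genes) and 0 at Gcn2Homo. Cell markers also differed at Gcn2Het: motor neuron markers summed to 113 to 155 CPM in Gcn2Het;GarsHet cords, against 168 to 208 CPM in Gcn2Het;GarsWT cords, with 3 of 6 called lower. All 10 Schwann cell and nerve root markers and all 9 meningeal markers tested were below 0, with medians of -1.86 and -1.85 and 0 called. Their sums were high in 2 of the 4 Gcn2Het;GarsWT libraries. Averaged as log2 CPM, the Schwann cell and nerve root markers were at 5.19, 2.07, 5.72 and 1.90 in Gcn2Het;GarsWT cords. In Gcn2Het;GarsHet cords they were at 1.40, 1.37, 1.49 and 3.85. The part of cell content in the values was not tested. The lowest p-values at Gcn2Het belonged to Ndufv3, a complex I flavoprotein subunit (-0.31 ± 0.08, adjusted p = 0.152), Atp5s, the ATP synthase coupling factor B (0.40 ± 0.11, adjusted p = 0.155), Ndufaf4 (0.46 ± 0.15, adjusted p = 0.217) and Cox6a1 (-0.31 ± 0.11, adjusted p = 0.224). Ndufaf4 and Cox6a1 are the genes that followed the GC slope above, and with the slope in the model their log2 values were 0.06 and -0.09. All 8 nuclear complex III genes were below 0 at Gcn2Het, by 0.13 or less, and none was called by edgeR or DESeq2. The 8 share libraries and are not independent of one another, and signs for the other complexes at this dose are not given. At Gcn2Homo the lowest p-values were those of Cox6a2 (2.64 ± 0.89), Cox7a1 (-0.67 ± 0.27), Cox5b (0.35 ± 0.18) and Sdha (-0.11 ± 0.06), each with an adjusted p of 0.941.

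**Figure D4:**
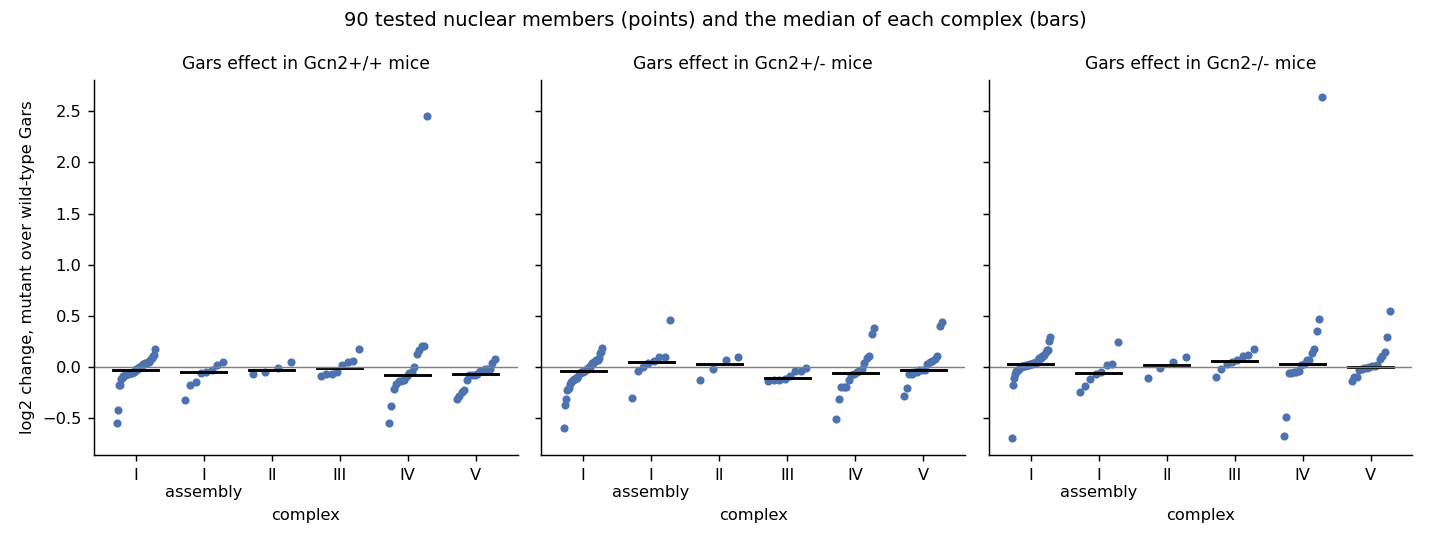
Log2 change between mutant and wild-type Gars for the 90 tested nuclear genes at each Gcn2 dose (panels), grouped by complex, one point per gene with the median of each complex as a bar. Most points lie close to 0. The highest point in the first panel, at 2.45, and in the third, at 2.64, is Cox6a2.

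Loss of Gcn2 on the mutant Gars background gave the only edgeR call outside the added difference below, Cox6a2, the heart and skeletal muscle isoform of a complex IV subunit (chromosome 7, 128205435 to 128206387 on GRCm38). It fell to 0.155, 0.379, 0.220, 0.0376 and 0.145 CPM in Gcn2Homo;GarsHet cords, against 0.568, 1.74, 1.22 and 0.569 CPM in Gcn2WT;GarsHet cords. The groups did not overlap, and the log2 change was -2.47 ± 0.54 (adjusted p = 0.0388), in a comparison that called 0.494% of all genes. These levels are near the floor of detection: 26 counts in 5 libraries against 120 counts in 4, a ratio of CPM of 0.177 with an exact 95% interval of 0.111 to 0.273 that covers counting error only.

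Cox6a2 was also low in the other genotypes, with 34 counts in Gcn2Het;GarsHet, 23 in Gcn2Het;GarsWT, 2 in Gcn2Homo;GarsWT and 21 in Gcn2WT;GarsWT libraries. The Gcn2WT;GarsHet libraries lay above all others but one, a Gcn2Het;GarsHet library at 0.581 CPM, and between Gcn2WT;GarsHet and wild-type libraries (0.154, 0.106, 0.226 and 0.267 CPM) the log2 change was 2.45 ± 0.57 without overlap (adjusted p = 0.0527). Skeletal muscle markers summed to 75.1 CPM in the second Gcn2WT;GarsHet library, which also had the highest Cox6a2, and to between 1.39 and 5.06 CPM in every other library. The other 3 Gcn2WT;GarsHet libraries had muscle sums of 1.63 to 2.00 CPM and Cox6a2 at 0.568 CPM or above. Without that library the change between Gcn2Homo;GarsHet and Gcn2WT;GarsHet was -2.12 and no longer passed (adjusted p = 0.116), and over all 21 alternatives the call held in 10, with adjusted p between 0.00489 and 0.341. With Gcn2WT;GarsHet replicate 3 or Gcn2Homo;GarsHet replicate 1, 3, 4 or 5 left out, the call was also lost, at adjusted p of 0.0801 to 0.148.

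Most other genes of that comparison had values above 0 without passing. The nuclear median was 0.07 beside 0.00 over all genes, 75 of 90 were above 0, and complexes I, IV and V had medians of 0.09, 0.08 and 0.09. Neuronal markers moved with them, at summed levels of 6322 to 7163 CPM in Gcn2Homo;GarsHet cords, against 5107 to 5699 CPM in Gcn2WT;GarsHet cords, and so did motor neuron markers, at 157 to 186 CPM, against 110 to 131 CPM, with 2 and 3 of 6 called higher. Schwann cell and nerve root markers summed to 715 to 1015 CPM in Gcn2Homo;GarsHet cords, against 683 to 3004 CPM in Gcn2WT;GarsHet cords, and meningeal markers to 67.1 to 83.1 CPM, against 71.3 to 1495 CPM. The part of cell content in these values was not tested. Ndufaf1 was at 26.1, 23.6, 23.9, 23.9 and 25.1 CPM in Gcn2Homo;GarsHet cords, against 22.5, 19.6, 20.9 and 21.4 CPM in Gcn2WT;GarsHet cords, without overlap (0.22 ± 0.05, adjusted p = 0.056). Ndufaf1 lies 1.27 Mb from Eif2ak4 on chromosome 2. In mice with wild-type Gars it was at 23.8 to 24.4 CPM in Gcn2Homo and 23.3 to 24.2 CPM in Gcn2WT cords, which overlapped (0.03 ± 0.06). At an unadjusted p under 0.05 there were 1 of 13 and 12 of 90, beside 10% of all genes. DESeq2, which called 1.43% of all genes, called Ndufaf1 and Ndufs1, an iron-sulfur subunit of complex I, upward beside Cox6a2. Ndufb2, 15.4 Mb from Gars on chromosome 6, was not called by edgeR or DESeq2 in any comparison.

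With wild-type Gars, loss of Gcn2 gave no call among the 103 genes, where 0.0287% of all genes were called, with 0 of 13 mitochondrial and 2 of 90 nuclear genes at an unadjusted p under 0.05 (3.68% of all genes) and 0 called by DESeq2 (0.218% of all genes). The smallest p-values were those of Cox6a2 (-2.66 ± 0.91), Atp5h (-0.43 ± 0.17), Ndufaf5 (-0.11 ± 0.06) and Cox6b1 (0.12 ± 0.07). The mitochondrial and nuclear medians were 0.00 and 0.01, the mitochondrial one at -0.11 without Gcn2Homo;GarsWT replicate 3 and 0.21 without replicate 1. The difference of the Gars effect between Gcn2-/- and Gcn2+/+ mice also gave 0 calls by edgeR and DESeq2, beside 0.0115% of all genes, with medians of 0.11 and 0.07 and 0 of 13 and 5 of 90 at an unadjusted p under 0.05 (4.93% of all genes), where DESeq2 called 0.201% of all genes. The mitochondrial median turned to -0.05 without Gcn2Homo;GarsWT replicate 1 and was 0.22 without replicate 3. Its smallest p-values were those of Atp5mpl (0.24 ± 0.08), Atp5h (0.57 ± 0.23), Ndufaf1 (0.20 ± 0.08) and Cox6c (0.24 ± 0.10), each with an adjusted p of 0.937.

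One Gcn2 copy against both copies gave 0 calls with wild-type Gars and 0 with mutant Gars, and 0% of all genes were called in either. With wild-type Gars 7 of 13 and 7 of 90 were under an unadjusted p of 0.05 (17.2% of all genes), and DESeq2 called Ndufaf4 and mt-Atp8 downward (2.64% of all genes). With mutant Gars 5 of 13 and 10 of 90 were under it (10.9% of all genes), and DESeq2 called 0 (0.0919% of all genes). The smallest nuclear p-values were those of Ndufaf4 (-0.52 ± 0.15), Cox6a1 (0.32 ± 0.11), Atp5s (-0.32 ± 0.10) and Atp5k (-0.21 ± 0.07) with wild-type Gars, with adjusted p of 0.138 or more, and of Ndufaf1 (0.21 ± 0.05), Atp5mpl (0.19 ± 0.06), Atp5s (0.33 ± 0.10) and Cox6a2 (-1.59 ± 0.54) with mutant Gars, each with an adjusted p of 0.435. The mitochondrial medians were -0.31 with wild-type Gars and 0.27 with mutant Gars, and 0.10 and 0.08 once the GC slope was in the model. These comparisons share their control libraries with the Gars comparisons above. Between males and females 0 of 103 genes passed in edgeR or DESeq2, beside 0.0804% of all genes, with 0 of 13 and 3 of 90 at an unadjusted p under 0.05 (2.79% of all genes), where DESeq2 called 0.126% of all genes. The smallest nuclear p-values belonged to Ndufs1 (-0.05 ± 0.02), Uqcrfs1 (-0.10 ± 0.05), Cox5a (-0.09 ± 0.04) and Ndufs8 (-0.09 ± 0.05). The X-linked genes Ndufa1, Ndufb11 and Cox7b had male-over-female log2 values of -0.02, 0.01 and 0.02.

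The reversal of sign between Gcn2+/- and Gcn2+/+ mice was tested as a difference of Gars effects, a comparison chosen after the values had been seen. Its groups were also split by GC slope, which was below 0 in 3 of 4 libraries in both Gcn2Het;GarsHet and Gcn2WT;GarsWT. The slope was below 0 in 0 of 4 in both Gcn2WT;GarsHet and Gcn2Het;GarsWT, so that genotype and GC slope were largely confounded here. This comparison called 6 of 103 genes upward and 0 downward, beside 3.7% of all genes, and DESeq2 called 14 upward and 2 downward, beside 9.74%. At an unadjusted p under 0.05 there were 11 of 13 and 21 of 90, beside 23.4% of all genes. mt-Atp8 differed by 4.10 ± 0.90 (adjusted p = 0.0399), Ndufaf4 by 0.79 ± 0.21 (adjusted p = 0.046), Atp5s by 0.64 ± 0.15 (adjusted p = 0.0399) and Atp5k by 0.42 ± 0.10 (adjusted p = 0.0399). Atp5mpl and Ndufaf1 differed by 0.29 ± 0.08 and 0.28 ± 0.07, with adjusted p of 0.0491 and 0.0463. With the GC slope in the model, or with GC offsets, 0 of all 17409 genes were called and the 6 had adjusted p-values of 0.841 or more and 0.088 or more. mt-Atp8 differed by 0.36 with the GC slope and still by 3.31 with GC offsets (adjusted p = 0.088), and Atp5k by 0.37 and 0.52, while Ndufaf4 differed by -0.09 and 0.47 and Atp5mpl by 0.23 and 0.06.

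A few nuclear genes, chosen after their values were seen, varied widely between libraries of one genotype. Over the 90 nuclear genes the median SD within groups was 0.11 on the log2 scale, and Uqcrc2, a core subunit of complex III, was the steadiest at 0.04 with 161 to 175 CPM over all libraries. Ndufs5, an accessory subunit of complex I on chromosome 4, had an SD of 1.72. It lay at 3 separate levels: 2.60 to 3.38 CPM in 5 libraries, 29.4 to 35.7 CPM in 11 and 63.3 to 72.7 CPM in 8. Its values were 34.5, 29.6, 32.02 and 3.04 CPM in Gcn2WT;GarsHet cords and 3.19, 31.9, 66.8 and 32.5 CPM in wild-type cords, so that libraries of one genotype fell on different levels.

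BC002163, a processed pseudogene on chromosome 16 that shares 61.7% of the 25-base words of Ndufs5, ran the other way. It was at 47.1, 23.8, 0.0377 and 21.1 CPM in the same 4 wild-type libraries, and the sum of both was 42.7 to 72.7 CPM over all 24. Tmem234, 5.89 Mb from Ndufs5 on the same chromosome and without shared 25-base words, was at 24.6, 33.1, 42.5 and 33.5 CPM in these libraries, in the order of Ndufs5. Ndufb6, another complex I subunit on chromosome 4, had 41.1 to 48.9 CPM in 12 libraries, 71.0 to 88.1 CPM in 10 and 123 to 125 CPM in 2, with Smu1, 0.466 Mb away, at 49.2 to 100 CPM. Neither Ndufs5 nor Ndufb6 was called by edgeR or DESeq2 in any comparison, and the part of the strain background's alleles in these levels was not tested.

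Atp5e, the epsilon subunit of ATP synthase on chromosome 2, ranged over 9.60 to 49.4 CPM. Atp5h, its d subunit on chromosome 11, ranged over 78.2 to 148 CPM, while the processed pseudogene Gm10250 on chromosome 15, which shares 83.5% of its 25-base words, ranged over 0 to 50.7 CPM. The sum of the pair was 126 to 148 CPM. The Atp5h differences given above are therefore uncertain, since reads of the pair could be divided differently in each library.

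**Figure D5:**
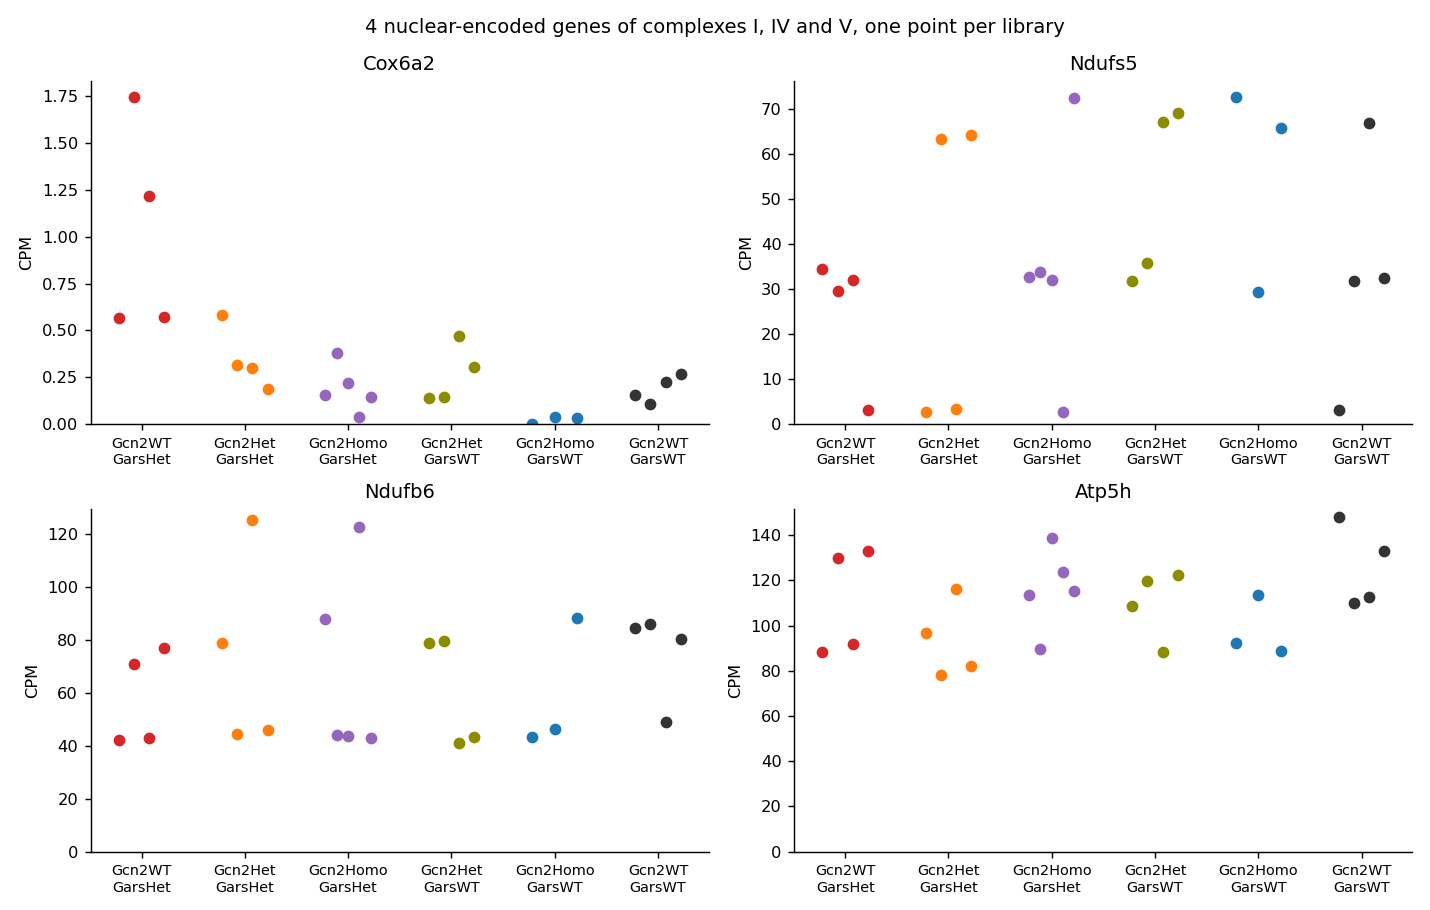
CPM of Cox6a2, Ndufs5, Ndufb6 and Atp5h, one point per library, by genotype. Cox6a2 is at 0.568 CPM or above in the 4 Gcn2WT;GarsHet libraries and in 1 Gcn2Het;GarsHet library, Ndufs5 lies on 3 levels that each occur in several genotypes, with wild-type libraries at 3.19, 31.9, 66.8 and 32.5 CPM, and Ndufb6 lies at 48.9 CPM or below, between 71.0 and 88.1 CPM, or at 123 CPM or above.

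Other genes that mitochondria need gave few calls as well. In the Gars comparisons at Gcn2WT, Gcn2Het and Gcn2Homo, edgeR called 0 of 27 genes of biogenesis and mitochondrial DNA expression, 0 of 38 further assembly factors, 0 of 19 genes of electron carriers, 0 of 15 proteases and chaperones and 0 of 77 genes of the mitochondrial ribosome. At Gcn2WT 4, 6, 2, 3 and 4 of them were at an unadjusted p under 0.05, beside 17.3% of all genes. Ppargc1a, the coactivator known for driving mitochondrial biogenesis, had a log2 value of -0.25 ± 0.08 at Gcn2WT (adjusted p = 0.112). Against the same wild-type libraries it was also below 0 without mutant Gars. It was at -0.23 ± 0.07 in Gcn2Het;GarsWT cords (adjusted p = 0.147) and at -0.15 ± 0.08 in Gcn2Homo;GarsWT cords. Between Gcn2Homo;GarsHet and Gcn2WT;GarsHet cords, 2 of these genes passed, beside 0.494% of all genes. Uqcc1, an assembly factor of complex III, was higher by 0.28 ± 0.06 (adjusted p = 0.017). It was also above 0 for Gcn2 loss with wild-type Gars (0.21 ± 0.06, adjusted p = 0.719). For one Gcn2 copy with mutant Gars it was at 0.21 ± 0.06 (adjusted p = 0.435). Mrps26, a protein of the small ribosomal subunit, was lower (-0.31 ± 0.06, adjusted p = 0.018). Distances to Eif2ak4 were examined for the oxidative phosphorylation genes only, so linkage of these 2 genes to Eif2ak4 was not tested. In the added difference between Gcn2+/- and Gcn2+/+ mice, where 3.7% of all genes were called, 3 passed: the complex III assembly factor Uqcc3 (-0.58 ± 0.16, adjusted p = 0.0491), the inner membrane protease Yme1l1 (0.51 ± 0.13, adjusted p = 0.0431) and Mrps15 of the small ribosomal subunit (-0.47 ± 0.12, adjusted p = 0.0426).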

How the data were processed

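Per the labels' protocols, RNA was extracted with TRIzol and miRNeasy columns, poly(A)-selected, made into libraries and read as 75-bp pairs. The submitters' processing notes name Bowtie2 2.2.0 and RSEM 1.2.12. Their genome build was not given in the sources used here. Values per gene and library were deposited by the authors, an expected count and a TPM. Gene IDs were matched to GENCODE M21 (GRCm38), which names 37607 of the 38924. Expected counts were rounded to whole numbers. In all, 35 of the 106 members had a count in some library that was over 0.005 from a whole number. edgeR 4.0.16 in R 4.3.3 was used with TMM factors, its default filter by group, and a robust quasi-likelihood F test with genotype group and sex over all 24 libraries. Benjamini-Hochberg adjustment ran over all 17409 tested genes, with a threshold of 0.05. The code was tested on simulated data. CPM are rounded deposited counts scaled to a library total of 1e+06, the total being first multiplied by the library's TMM factor (0.975 to 1.042). The GC slope and the averaged log2 CPM of Schwann cell markers used totals without that factor. DESeq2 1.42.0 was an alternative, as were other scalings, filters, covariates, title numbers and left-out libraries. The labels tie no library to a litter or extraction day. The tests take the 24 libraries as independent and judge each difference against the spread between libraries within groups. The titles open with 8 numbers, each shared by up to 6 libraries, and the labels do not explain them, so independence is not assured. The members and lists were chosen with earlier results of these data known. Text names all 13 mitochondrial genes, called nuclear genes or the 4 with the smallest p per comparison, the most abundant gene per complex and complex II. It also names tissue isoforms, Ndufa4l2, X-linked genes, listed genes within 20 Mb of Eif2ak4 or Gars, and others said to be chosen after their values were seen. A second Atp5o gene ID was not analysed here, and some items are not reported here.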

Additional observations from a re-analysis of the deposited data

Results flagged for a closer look

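In 170 sets of libraries (a gene or share in one genotype), 8 had a highest or lowest library far from the others; chance alone gives about 1 in 20. The fourth Gcn2WT;GarsHet library was high in 4 of them: mt-Atp8 at 232 CPM (the other 3 at 151 to 160 CPM), mt-Co1 at 19635 CPM (18321 to 18393 CPM), mt-Co2 at 6416 CPM (5377 to 5552 CPM) and the mitochondrial share at 6.54% (5.89% to 5.97%). These 4 are not independent of one another, since the share includes the named genes, and the 170 sets share libraries too. This library also had the highest sum of Schwann cell and nerve root markers of all 24, 3004 CPM, and the lowest GC slope of its group, 0.0391; the part of either was not tested.

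The first Gcn2Het;GarsHet library had mt-Nd3 at 566 CPM, below the other 3 (735 to 755 CPM), and was the only one of its group with a GC slope above 0. The first Gcn2Homo;GarsHet library had Ndufaf4 at 35.0 CPM, above the other 4 (23.4 to 24.8 CPM), and Ndufv3, whose GC content is 56.4%, at 40.1 CPM, below the other 4 (45.3 to 47.0 CPM). It was the only one of its group with a GC slope below 0. The first Gcn2WT;GarsHet library had Ndufaf4 at 28.02 CPM, above the other 3 (24.9 to 25.3 CPM).

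For 6 genes edgeR's test called a difference of the Gars effect between Gcn2+/- and Gcn2+/+ mice. The comparison was chosen after the values were seen and called 3.7% of all genes, and genotype and GC slope were largely confounded in it. The genes were mt-Atp8 (4.10 on the log2 scale), Ndufaf4 (0.79), Atp5s (0.64), Atp5k (0.42), Atp5mpl (0.29) and Ndufaf1 (0.28). With the GC slope in the model the differences were 0.36, -0.09, 0.26, 0.37, 0.23 and 0.17, and none passed. Over 27 alternatives each, the call held in 10 for mt-Atp8, 7 for Ndufaf4, 10 for Atp5s, 9 for Atp5k, 6 for Atp5mpl and 9 for Ndufaf1. The count of called members was 0 to 15 with single libraries left out, and 0 with the title number as a block, no filter, the Schwann score or own groups only.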

How the results depend on the processing

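Of 226 alternative counts of called members, 180 stayed within 1.5 times the count reported. Counts of 0 that stayed at 0 are among the 180, and only Gcn2 loss with mutant Gars and the added difference had any call. The Cox6a2 call of the former held in 10 of 21 alternatives, and the 6 calls of the latter in 6 to 10 of 27 each. For the Gars effect in Gcn2+/+ mice (0 called), dropping the sex term gave 1, GC offsets 1, DESeq2 3 and single left-out libraries 0 to 2. DESeq2 gave 2 in Gcn2+/- mice. For Gcn2 loss with mutant Gars (1 called), the counts were 2 without a sex term, 3 with DESeq2, 0 with the 4 listed genotypes, the Schwann score, the GC slope or its own groups only, and 0 to 2 with left-out libraries. One Gcn2 copy with wild-type Gars gave 2 with DESeq2 and 0 to 4 with left-out libraries. Without the first wild-type library, the one with a GC slope above 0, the counts were 2 for the Gars effect in Gcn2+/+ mice, with 600 genes called in all, and 4 for one Gcn2 copy. The added difference (6 called) gave 16 with DESeq2, 0 to 15 with left-out libraries, and 0 with no filter, the Schwann score, either GC correction or own groups only. With the number that opens each title as a replicate block, 0 members were called in every comparison. The labels do not say what the number marks.

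With TPM, the log2 ratio of the mitochondrial share to wild type was -0.36 in Gcn2WT;GarsHet, -0.27 in Gcn2Homo;GarsHet and -0.46 in Gcn2Het;GarsWT. Mean TPM shares in these groups were 17.3%, 18.4% and 16.2%, against 22.2% in wild type. They were 22.7% in Gcn2Het;GarsHet and 22.6% in Gcn2Homo;GarsWT. By counts the differences were smaller, at 6.09%, 6.32% and 5.91% in the first-named groups, against 6.63% in wild type. The TPM share includes mt-Atp8, whose TPM is the least certain. With the GC slope in the model, the Gars effect in Gcn2+/+ mice turned to 0.14 for mt-Nd1, 0.13 for mt-Nd2, 0.10 for mt-Co2, 0.11 for mt-Atp6, 0.14 for mt-Co3, 0.21 for mt-Nd3, 0.030 for mt-Nd4, 0.018 for mt-Cytb and 0.19 for mt-Nd4l, and in Gcn2+/- mice to -0.0011 for mt-Co1, -0.0077 for mt-Co3, -0.031 for mt-Nd4, -0.025 for mt-Nd5 and -0.045 for mt-Nd6. GC offsets turned mt-Nd1 to 0.14, mt-Nd2 to 0.18, mt-Co1 to 0.053 and mt-Cytb to 0.17 in Gcn2+/+ mice, and mt-Co1 to -0.076, mt-Nd5 to -0.042, mt-Nd6 to -0.094 and mt-Cytb to -0.12 in Gcn2+/- mice. In Gcn2+/+ mice mt-Cytb was 0.0029 with title numbers in 2 sets, and -0.081 to 0.0045 with left-out libraries (above 0 without wild-type replicate 2). In Gcn2+/- mice it was -0.030 to 0.16 (below 0 without Gcn2Het;GarsWT replicate 4). With the GC slope, Ndufaf4 was 0.012 for one Gcn2 copy with wild-type Gars and -0.092 in the added difference. The causes were not tested. Of 1521 single-gene values under an alternative, 27 changed sign, all listed here. Groups of 3 to 5 libraries and few Cox6a2 counts limit what can be seen.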

Other observations

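Aptx, 0.412 Mb from Ndufb6, ranged over 26.2 to 53.4 CPM. Gm4724 and Gm14305, 0.961 and 2.25 Mb from Atp5e on chromosome 2, ranged over 1.03 to 25.6 CPM and 0.731 to 29.9 CPM. In the third Gcn2WT;GarsHet library they were at 1.96 and 1.42 CPM with Atp5e at 9.60 CPM, and in the first Gcn2Homo;GarsHet library at 25.6 and 29.7 CPM with Atp5e at 49.4 CPM. These genes were chosen after their values were seen.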
